A study of Drosophila melanogaster with 6 samples.

Results

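Ribosomal protein genes fall into a cytosolic group, whose products build the ribosomes that translate nuclear messages, and a mitochondrial group, whose products are made in the cytosol, imported and built into the separate ribosomes of the mitochondrion. Both groups were read here in the heads of Drosophila melanogaster. Members were genes annotated alone to a probe set, with a symbol there that began with RpL or RpS (cytosolic) or mRpL or mRpS (mitochondrial). The names given here were updated by gene ID. Of the 8517 genes measured, 104 were members, 35 cytosolic (23 of the large and 12 of the small subunit, going by the letter L or S in the name) and 69 mitochondrial (44 and 25). The gene table of the assembly lists 92 cytosolic and 73 mitochondrial symbols of this form, so the cytosolic set is a sample and the mitochondrial set nearly whole. The members were chosen by name, and 1 gene of this form was left out by the rule that named them.

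The study compared 3 genotypes, labelled control, cbt over-expression (OE-labelled below) and cbt RNAi, with 1 array at each of 2 times and 6 arrays in all. Each array carried RNA of 30 heads from flies kept for some days in a light-dark cycle and collected at ZT3, in the day, or ZT15, in the night (ZT, Zeitgeber time, counts hours from lights-on). The design text calls the control flies cyo. The labels used here name neither the driver nor the cells in which cbt, a zinc finger transcription factor, was altered, and they give no age or sex. Values are log2 signals as deposited, so a difference of 1 is a doubling, and a level of one probe set says nothing about that of another.

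The cbt signal itself went against the labels. It read 10.21 and 10.72 in control flies (ZT3 and ZT15), 8.98 and 9.90 in OE-labelled flies and 10.99 and 11.05 in RNAi-labelled flies. The genotypes are therefore called by their labels, and no direction below is tied to more or less cbt. Array medians lay between 7.35 and 7.42. The labels do not say whether both samples of a genotype had separate cultures, so p-values measure the spread among these 6 arrays alone. With 1 array per genotype and time, a difference in the time course between genotypes could not be tested.

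Cytosolic ribosomes have a large subunit, which joins amino acids, and a small one, which decodes the message. In growing cells the messages of their proteins are made in near-equal amounts and respond together to nutrient signals through the TOR kinase and the transcription factor Myc. Mitochondrial ribosomes translate the few messages of the mitochondrial genome, which encode core subunits of the respiratory chain, and many of their proteins have no counterpart in bacterial ribosomes.

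The 2 groups differed in how much each gene varied from array to array. Of the cytosolic members, 29 had mean signals of 12.82 to 13.80, near the top of the table (highest value 14.32), where 171 of all genes lay above 12. The other 6 are paralogs or "-like" genes and had lower signals, from 4.27 to 11.30. For the typical cytosolic member the highest and lowest of the 6 arrays were 0.22 apart (median, with 0.16 for the 29), for the typical mitochondrial member 0.38. Both were steadier than the typical gene of all 8517, at 0.54. RpL27 was among the steadiest, at 13.11 in control flies at both times, 13.13 and 13.09 in OE-labelled and 13.10 and 13.12 in RNAi-labelled flies. Whether signals so close to the top of the scale read differences in full was not tested. Mitochondrial members had mean signals from 7.04 (mRpL3) to 10.39 (mRpS5).

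The clearest contrast between the groups was in time. Of the 69 mitochondrial members, 65 (94.2%) read higher at ZT15 than at ZT3 on average over the genotypes, against 45.4% of all genes. The typical difference was small, a median of 0.14 on the log2 scale with a middle range of 0.08 to 0.19, and it was 0.14 in control, 0.13 in OE-labelled and 0.15 in RNAi-labelled flies. Of the 35 cytosolic members 10 read higher at ZT15, with a median difference of -0.02, close to the -0.02 of all genes. No single member of either group passed the test for time (limma, Benjamini-Hochberg adjusted p under 0.05 over all 8517 genes). The lowest adjusted p was 0.172 among mitochondrial and 0.408 among cytosolic members. Few genes passed at all, 0.364% higher and 0.329% lower at ZT15. Unadjusted p-values under 0.05 were found for 17 mitochondrial members, all higher at ZT15, and 0 cytosolic ones, against 475 higher and 791 lower among all genes.

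The direction recurred in each genotype. Of the mitochondrial members 57 read higher at ZT15 in control flies, 62 in OE-labelled and 65 in RNAi-labelled flies. In all 3 genotypes 49 (71.0%) read higher and 0 read lower, where 17.4% of all genes read higher and 22.8% lower in all 3. Of the cytosolic members 2 read higher in all 3 genotypes and 11 lower. For 21 mitochondrial members (30.4%) each of the 3 ZT15 arrays lay above each of the 3 ZT3 arrays, as for 3.68% of all genes. None lay wholly below, as 4.71% of all genes did. Among cytosolic members 0 lay wholly above and 2 wholly below, RpL37-1 and RpLP0. Of the large-subunit mitochondrial members 41 of 44 read higher at ZT15 (median 0.14) and of the small-subunit ones 24 of 25 (median 0.15). The night arrays lay wholly above the day arrays for 11 of the 44 and 10 of the 25 members, and the medians in control flies were 0.10 and 0.20. The difference between the subunits was not tested. Without the control pair of arrays the median over all mitochondrial members was 0.14, and without the OE-labelled or the RNAi-labelled pair it was 0.13.

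**Figure D1:**
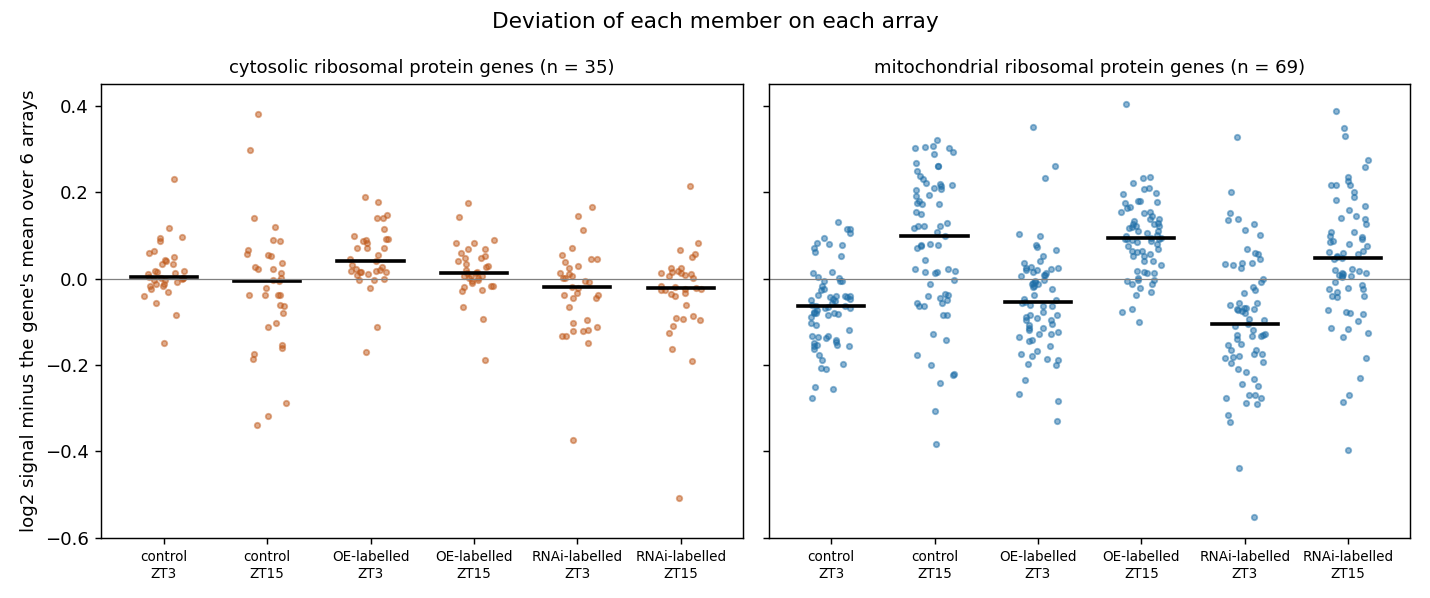
Each point is 1 member on 1 array, as its log2 signal minus its own mean over the 6 arrays, with cytosolic members on the left and mitochondrial members on the right; black lines are medians. The mitochondrial medians are below 0 on the 3 ZT3 arrays (-0.06, -0.05 and -0.11) and above 0 on the 3 ZT15 arrays (0.10, 0.09 and 0.05), while the cytosolic medians stay between -0.02 and 0.04.

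Set against the cytosolic median of the same array, the mitochondrial median lay at -0.07 and 0.10 in control flies (ZT3 and ZT15), at -0.09 and 0.08 in OE-labelled flies, and at -0.09 and 0.07 in RNAi-labelled flies. The 3 day arrays thus had the mitochondrial members low relative to the cytosolic ones and the 3 night arrays had them high, with no overlap. The median of the genes' own ZT15 minus ZT3 differences, mitochondrial minus cytosolic, was 0.16, 0.17 and 0.16 in the same order. These are descriptions of gene groups on 6 arrays and carry no p-value.

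The 3 mitochondrial members with the largest differences were mRpL54, mRpL11 and mRpL41, none of which passed. mRpL54, a large-subunit protein with no bacterial counterpart, read 7.28 and 7.79 in control (ZT3 and ZT15), 7.38 and 7.71 in OE-labelled and 7.48 and 7.70 in RNAi-labelled flies. All night arrays were above all day arrays, by 0.35 ± 0.09 on average (SE, adjusted p = 0.195 by limma). mRpL11, whose relatives sit at the base of the stalk where translation factors bind, read 6.95 and 7.33 in control, 7.09 and 7.40 in OE-labelled and 7.07 and 7.39 in RNAi-labelled flies. Its groups did not overlap either, and the difference was 0.33 ± 0.08 (SE, adjusted p = 0.173 by limma). mRpL41, another protein absent from bacteria, read 8.44 and 8.83, 8.20 and 8.52, and 8.46 and 8.72 in the same order. The night arrays lay above the day arrays, by 0.32 ± 0.07 (SE, adjusted p = 0.172 by limma).

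Stalk proteins did not all follow this. mRpL10, which anchors the stalk, read 8.74 and 9.09 in control, 8.63 and 8.86 in OE-labelled and 8.59 and 8.79 in RNAi-labelled flies, a difference of 0.27 with no overlap. mRpL12, the mobile stalk protein, read 8.24 and 8.001, 8.50 and 8.45, and 8.03 and 8.23 in the same order. It was lower at night in 2 of the 3 genotypes, with a mean difference of -0.03. The other 3 mitochondrial members with a negative mean difference were mRpL28 (-0.07), mRpS6 (-0.04) and mRpL35 (-0.01), and none of these had 1 sign in all 3 genotypes.

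The other members whose night arrays lay wholly above their day arrays were mRpL14, mRpL15, mRpL17, mRpL43, mRpL45, mRpL52 and mRpL55 of the large subunit and mRpS16, mRpS17, mRpS18A, mRpS18B, mRpS18C, mRpS23, mRpS26, mRpS30, mRpS34 and mRpS35, named for the small one. The counterparts of mRpS18A and mRpS30 sit in the large subunit in mammals. mRpS18A read 8.42 and 8.86 in control, 8.50 and 8.73 in OE-labelled and 8.38 and 8.67 in RNAi-labelled flies, the largest difference under an S name at 0.32. mRpS35 read 7.71 and 7.96, 7.76 and 8.02, and 7.67 and 7.92 in the same order. All night arrays lay above all day arrays, with a mean difference of 0.26.

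**Figure D2:**
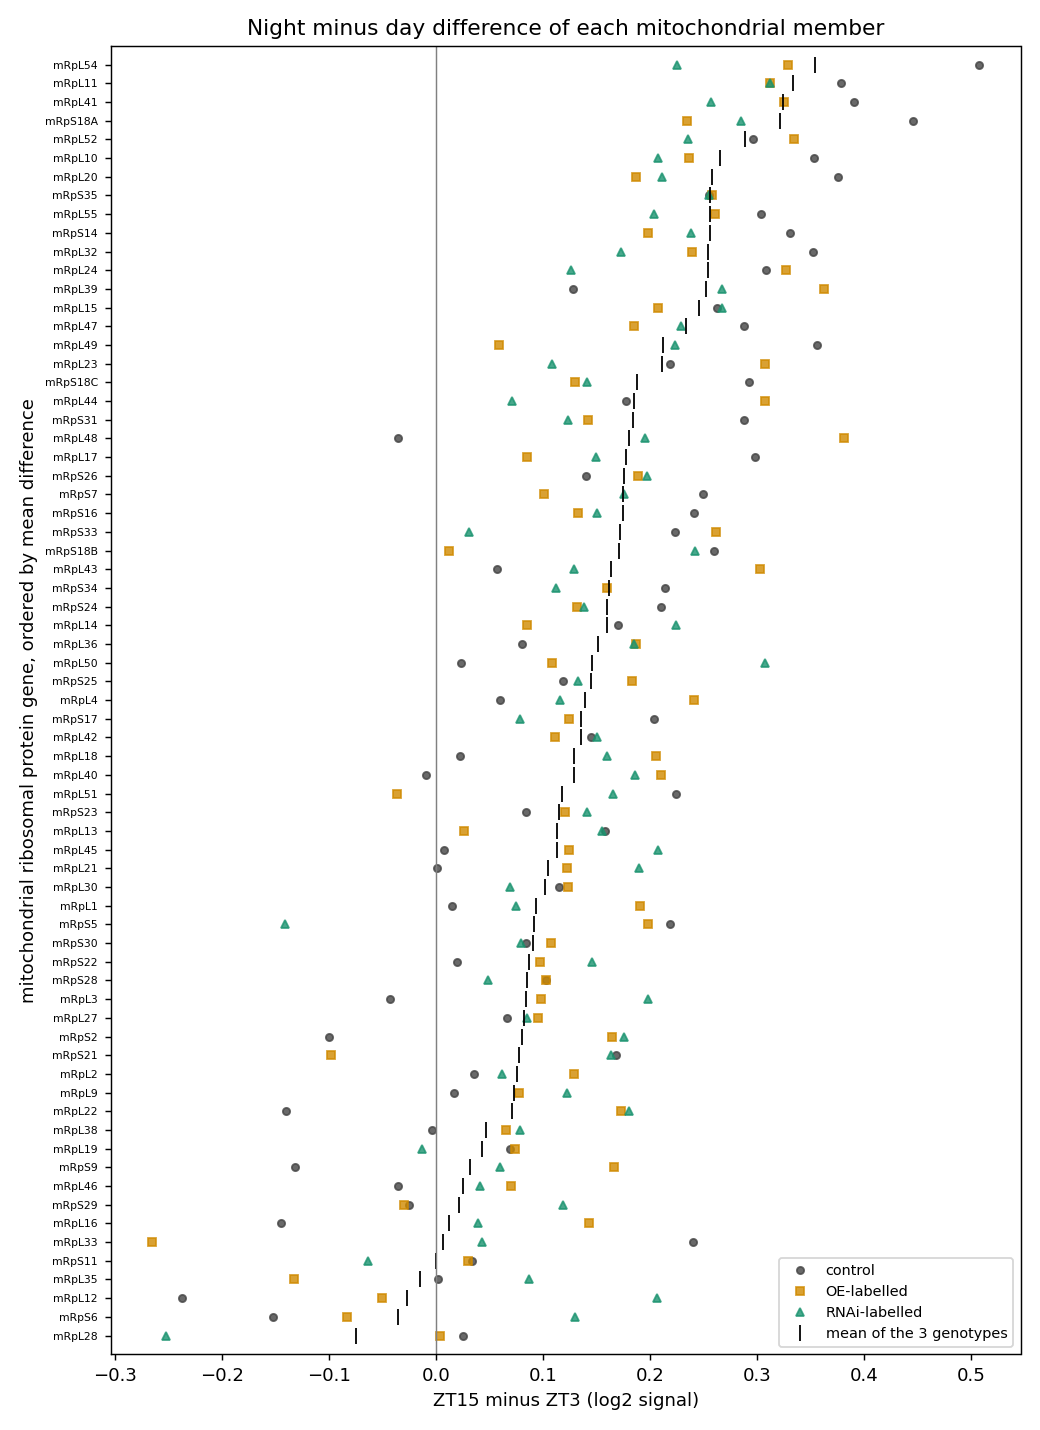
Each row is 1 of the 69 mitochondrial members, ordered by its mean difference; symbols give the log2 signal at ZT15 minus that at ZT3 in control (circles), OE-labelled (squares) and RNAi-labelled flies (triangles), and ticks give the mean of the 3. For 49 members all 3 symbols lie right of 0, and mean differences run from -0.07 (mRpL28) to 0.35 (mRpL54).

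A pair of mitochondrial small-subunit proteins, bonsai and tko, carry other names and were outside the rule. bonsai read 8.19 and 8.32 in control, 8.38 and 8.46 in OE-labelled and 8.19 and 8.44 in RNAi-labelled flies, with a mean difference of 0.15. tko (technical knockout) read 8.84 and 9.10, 9.03 and 9.02, and 8.65 and 8.95 in the same order, with a mean difference of 0.18. The first was higher at night in all 3 genotypes and the second in 2. Rack1, a scaffold protein of the cytosolic small subunit, differed by -0.09. None of the 3 passed.

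The cytosolic members with the largest time differences of 1 sign in all genotypes were RpL17, RpLP0 and RpS7, none of which passed. RpL17, at the exit of the peptide tunnel, read 12.88 and 12.50 in control, 12.96 and 12.88 in OE-labelled and 12.86 and 12.83 in RNAi-labelled flies. The control ZT15 array was low and the other 5 lay between 12.83 and 12.96, with a mean difference of -0.16 (adjusted p = 0.443 by limma). RpLP0, which anchors the stalk, read 13.05 and 12.81, 13.07 and 12.98, and 13.03 and 12.97 in the same order, a difference of -0.13 (adjusted p = 0.408 by limma). The control ZT15 array was again the lowest, as it was for 14 of the 35 cytosolic members, RpL3, RpL28 and RpS7 among them. It was the lowest for 1802 of all 8517 genes, and the highest for 7 of the 35 members. RpLP1, a partner of RpLP0 in the stalk, read lowest there too (13.61, against 13.75 to 13.84 on the other arrays), while RpLP2 did not (13.56, against 13.35 to 13.64).

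Several technical signals moved with time as well. The 23 probe sets for bacterial RNAs added as labelling controls read higher at ZT15 in 23, 23 and 16 cases, with median differences of 2.81 in control, 0.64 in OE-labelled and 0.18 in RNAi-labelled flies. The 13 hybridisation controls differed by 0.63, 0.12 and 0.08 and the 3 probe sets of the small-subunit ribosomal RNA by 1.65, 1.43 and 0.09 in the same order. Their part in the time difference of the members was not tested. The gap between the 3′ and 5′ probe sets of GAPDH, a sign of RNA quality, was 3.67 and 3.61 in control, 3.67 and 3.94 in OE-labelled and 3.83 and 4.24 in RNAi-labelled flies. The same gap of eIF4a was 5.71 and 5.53, 5.98 and 6.13, and 5.66 and 5.51 in the same order, so that in RNAi-labelled flies it was narrower at ZT15 where that of GAPDH was wider.

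Cell type markers were read on the same arrays. All 4 photoreceptor markers on the table (of 11 listed) read higher at ZT15 on average, with median deviations of -0.28 and 0.08 in control, -0.48 and 0.03 in OE-labelled and 0.08 and 0.49 in RNAi-labelled flies, and gl, a regulator of photoreceptor development, passed (0.68 ± 0.07, SE, adjusted p = 0.0377 by limma). The 10 neuron markers on the table (of 12) read higher at ZT15 in 6 cases in control, 10 in OE-labelled and 2 in RNAi-labelled flies. The 8 digestive tract markers on the table (of 15) had a median deviation of 2.04 on the ZT3 array of OE-labelled flies and of -0.71 to 0.00 on the other 5, and all 8 read lower at ZT15 on average. Of 11 hemocyte markers 8 read lower at ZT15, with a median of -0.19 (-0.23 in control, -0.26 in OE-labelled and -0.10 in RNAi-labelled flies). Of 8 muscle markers on the table (of 12) 6 read higher, with a median of 0.14 (0.35, 0.04 and -0.04 in the same order). The medians of the glia, fat body and germline markers were 0.09, 0.04 and 0.00. Single germline markers differed by -2.77 to 0.13. The mean signal of the 7 germline markers on the table (of 18) was 9.86 on the OE-labelled ZT3 array and 8.32 to 8.84 on the other 5. Fewer cells of a type and less RNA per cell cannot be told apart in whole heads. The part of these cells in the members' differences was not tested.

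Genes that act with the mitochondrial ribosome were read beside it. Of 20 mitochondrial aminoacyl-tRNA synthetases and related enzymes, which charge tRNAs, 14 read higher at ZT15 with a median of 0.13. In all 3 genotypes 9 of the 20 (45%) read higher and 1 (5%) lower, beside 17.4% and 22.8% of all genes. ValRS-m read 5.71 and 6.15 in control, 5.64 and 6.09 in OE-labelled and 6.08 and 6.42 in RNAi-labelled flies, a mean difference of 0.41 (adjusted p = 0.159 by limma). Of 20 mitochondrial translation and gene expression factors 14 read higher, with a median of 0.06, and 5 read higher and 3 lower in all 3. The elongation factor mEFG1 differed by 0.26 and the elongation factor mEFTu2 by -0.09. None of these 40 genes passed.

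Genes that serve the cytosolic ribosome had medians below 0, as all genes did (-0.02). Of 37 ribosome biogenesis genes, 3 of them members, 8 (21.6%) read higher at ZT15, with a median of -0.11, and 16 (43.2%) read lower in all 3 genotypes. Of all genes 45.4% read higher at ZT15, and 22.8% read lower in all 3 genotypes. The medians of the biogenesis genes were -0.05 in control, -0.25 in OE-labelled and -0.06 in RNAi-labelled flies. Of 10 genes for RNA polymerase I, which makes ribosomal RNA, 2 read higher (median -0.13), and of 29 translation initiation genes 5 did (median -0.04). None passed in these 3 lists.

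**Figure D3:**
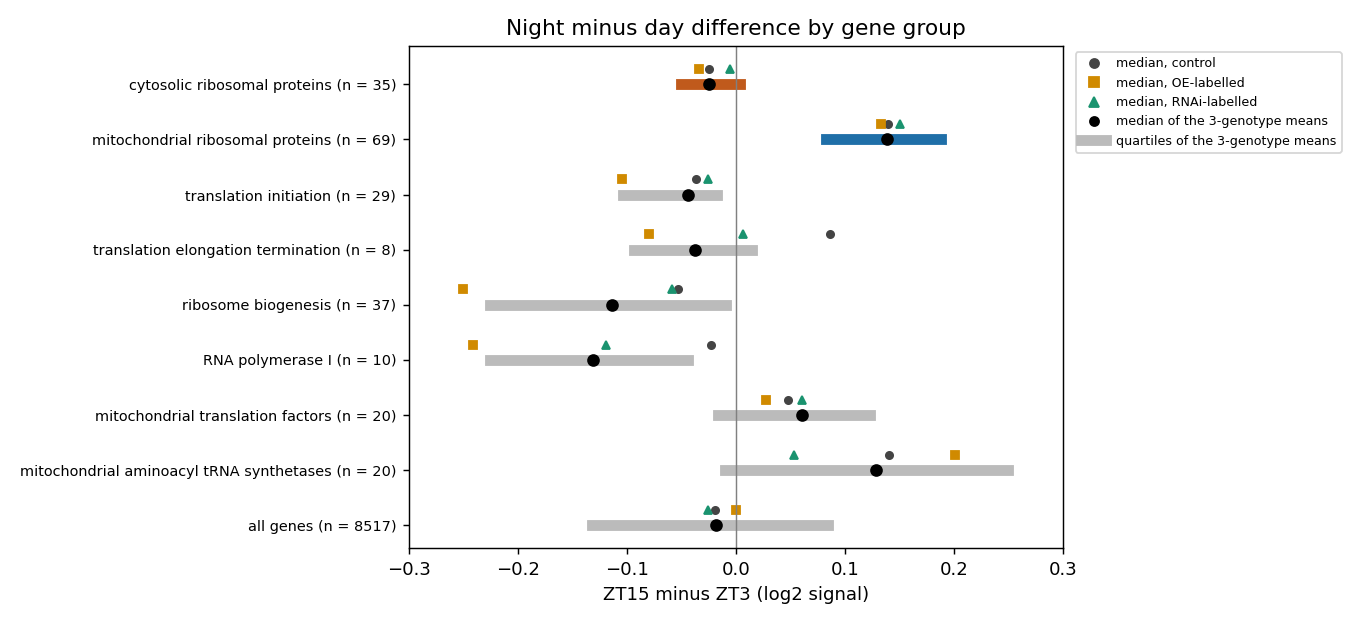
For each gene group the black dot is the median of the genes' mean ZT15 minus ZT3 differences in log2 signal, the bar spans their quartiles, and small symbols give the median in each genotype. Mitochondrial ribosomal proteins (median 0.14) lie right of 0 with their whole bar, cytosolic ones (-0.02) lie close to all genes (-0.02), and ribosome biogenesis genes (-0.11) lie left.

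Between OE-labelled and control flies no member of either group passed, where 4.83% of all genes passed as higher and 2.23% as lower. With p-values left unadjusted, 1 cytosolic member (higher) and 6 mitochondrial ones were under 0.05 (3 higher and 3 lower), beside 1344 higher and 1141 lower among all genes. The cytosolic median was 0.02, with 24 of 35 members higher, and the mitochondrial median 0.03, with 40 of 69 higher. Of the cytosolic members 19 were higher and 7 lower at both times, and of the mitochondrial members 25 and 17, where all genes gave 37.6% and 35.6%. Large-subunit mitochondrial members had a median of 0.05 and small-subunit ones of -0.02, a difference that was not tested.

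The cytosolic members with the largest differences, none passing, were RpS7 (0.27), RpL3 (0.24) and RpL17 (0.23). RpL3, which lies at the peptidyl transferase centre, read 13.17 and 12.79 in control, 13.24 and 13.19 in OE-labelled and 13.16 and 13.21 in RNAi-labelled flies. The control ZT15 array stood low again, and without it the difference of RpL3 was 0.05. Without it RpL17 differed by 0.07 and RpS7 by 0.17. Among mitochondrial members mRpL12 (0.36), mRpS5 (-0.35) and mRpL3 (0.28) were the largest of 1 sign. mRpS5, near the messenger RNA entry in ribosomes, read 10.46 and 10.68 in control, 10.12 and 10.32 in OE-labelled and 10.45 and 10.31 in RNAi-labelled flies. It was lower than control at both times (adjusted p = 0.124 by limma), with no member 1.5-fold apart at both times, where 6.58% of all genes were.

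Between the RNAi-labelled and control genotypes 1 cytosolic and 3 mitochondrial members passed, where 3.16% of all genes passed as higher and 6.25% as lower. RpLP0-like fell, as did the mitochondrial large-subunit genes mRpL39 and mRpL2, and mRpS9 rose. These 4 of 104 are a smaller share than that of all genes. The cytosolic median was 0.00 with 18 of 35 higher, and the mitochondrial median -0.05 with 29 of 69 higher. The cytosolic group thus centred near 0 and the mitochondrial group leaned slightly lower, while single members moved either way. The lean was not tested. Of the cytosolic members 11 (31.4%) were higher and 15 (42.9%) lower at both times. Of the mitochondrial members 22 (31.9%) were higher and 35 (50.7%) lower, beside 38.5% and 36% of all genes. Among small-subunit mitochondrial members 6 of 25 were higher (median -0.10) and among large-subunit ones 23 of 44 (median 0.01). The difference between the subunits was not tested.

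RpLP0-like (gene ID 36058) is the relative of yeast Mrt4, an assembly factor that holds the place of the stalk protein in the unfinished large subunit, and that leaves before the subunit is finished. It read 7.57 and 7.64 in control (ZT3 and ZT15), 7.52 and 7.52 in OE-labelled and 6.97 and 6.83 in RNAi-labelled flies. Both RNAi-labelled arrays lay below the other 4, by 1.63-fold against control (-0.71 ± 0.10, SE, 95% interval -0.96 to -0.45, adjusted p = 0.0220 by limma). It was the only member of either group 1.5-fold apart from control at both times, where 6.39% of all genes were. The call was lost without either control or either RNAi-labelled array, with differences of -0.79 to -0.62 and adjusted p-values of 0.0878 to 0.217. RpLP0 itself, whose protein takes that place in the finished ribosome, read 13.05 and 12.81 in control and 13.03 and 12.97 in RNAi-labelled flies.

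Cytosolic members other than RpLP0-like did not pass, and the largest differences of 1 sign were those of RpL37-2 (0.25), RpS29 (-0.25) and RpS7 (0.21). RpS29, a zinc-binding protein of the small subunit, read 13.61 and 13.58 in control, 13.59 and 13.48 in OE-labelled and 13.37 and 13.33 in RNAi-labelled flies. Both RNAi-labelled arrays were its lowest (adjusted p = 0.0818 by limma), and its second probe set, of like brightness, gave -0.21. RpL29 read 13.26 and 13.22, 13.26 and 13.17, and 13.05 and 13.04 in the same order, and RpS20 13.37 and 13.38, 13.42 and 13.34, and 13.20 and 13.23. For both the RNAi-labelled pair was again below the other 4 arrays. Members also went the other way. For RpLP2 (13.64 and 13.59 in RNAi-labelled flies) and RpL24-like (11.36 and 11.22), among others, that pair lay above the other 4 arrays. The ubiquitin fusion genes RpS27A (13.40 to 13.46 over the 6 arrays) and RpL40 (13.27 to 13.40) hardly varied.

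mRpS9 (gene ID 40932), a small-subunit protein whose bacterial relative touches the tRNA, read 9.06 and 8.93 in control, 9.19 and 9.35 in OE-labelled and 9.64 and 9.70 in RNAi-labelled flies. The 3 genotypes did not overlap, with RNAi-labelled flies highest, 1.60-fold above control (0.67 ± 0.10, SE, 95% interval 0.41 to 0.93, adjusted p = 0.0261 by limma). mRpL39 (gene ID 39627), a protein with no bacterial counterpart, read 8.14 and 8.27, 8.05 and 8.42, and 7.46 and 7.73 in the same order. Both RNAi-labelled arrays were lowest, 1.53-fold below control (-0.62 ± 0.10, SE, 95% interval -0.87 to -0.36, adjusted p = 0.0300 by limma). mRpL2 (gene ID 39253), at the peptidyl transferase centre, read 8.10 and 8.14, 8.09 and 8.22, and 7.66 and 7.72. The RNAi-labelled pair again stood apart, 1.35-fold below control (-0.43 ± 0.09, SE, 95% interval -0.66 to -0.21, adjusted p = 0.0462 by limma). These 3 calls too were lost without either control or either RNAi-labelled array (adjusted p from 0.119 to 0.270), mRpL39 also without the time term (0.0880), and mRpL2 also without the time term (0.0648), without the intensity trend (0.0605) and after quantile normalization (0.0501).

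**Figure D4:**
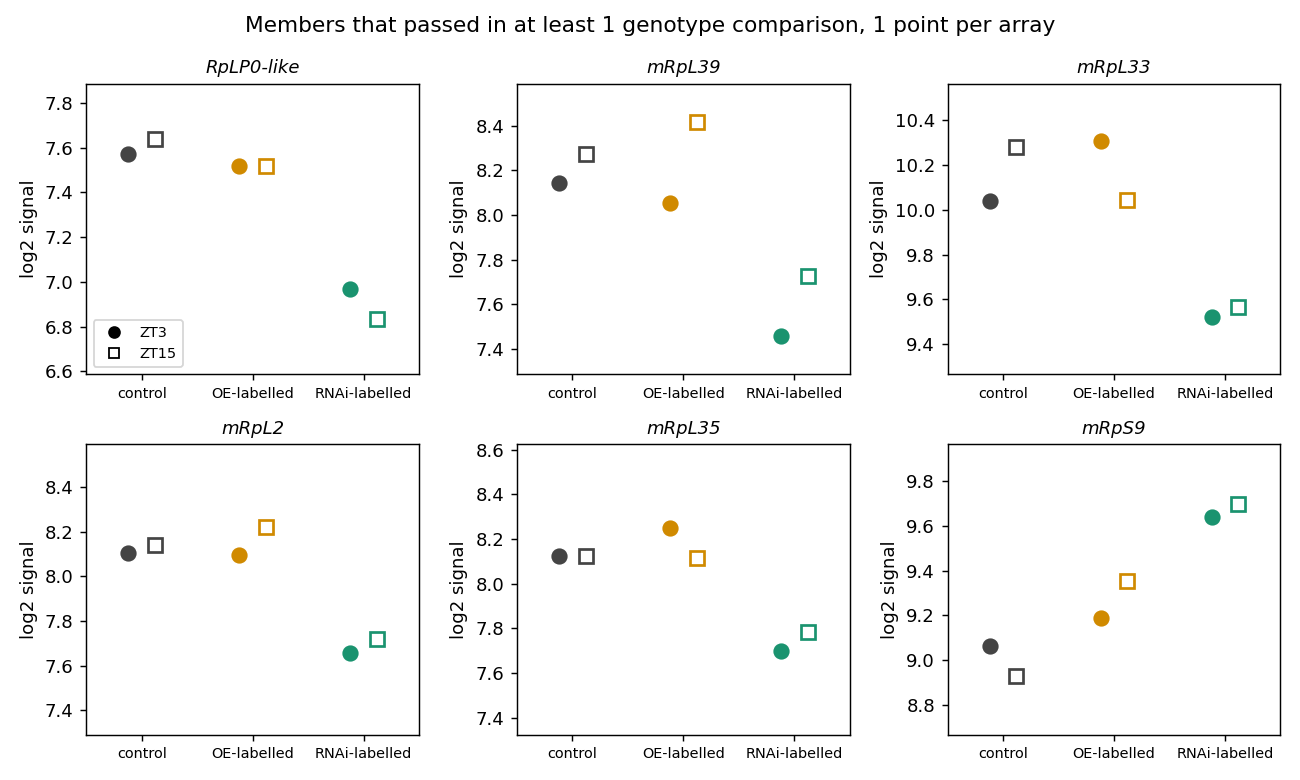
Each panel is 1 of the 6 members that passed in at least 1 genotype comparison, with log2 signal on the vertical axis, filled circles for ZT3 and open squares for ZT15, 1 array each. The RNAi-labelled pair is the lowest for RpLP0-like (6.97 and 6.83), mRpL39, mRpL33, mRpL2 and mRpL35, and the highest for mRpS9 (9.64 and 9.70).

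The test between the altered genotypes uses the same RNAi-labelled arrays as the comparison just given, so its calls are not independent of those. It called the most genes, 15.7% of all as higher and 11.9% as lower in the OE-labelled genotype, and 6 of the 104 members, again a smaller share. RpLP0-like was 1.53-fold higher in OE-labelled than in RNAi-labelled flies (0.62 ± 0.10, SE, adjusted p = 0.0132 by limma). mRpL39 was 1.56-fold higher (0.64 ± 0.10, SE, adjusted p = 0.0119 by limma) and was the only member 1.5-fold apart at both times, where 12.5% of all genes were. mRpL2 (0.47, adjusted p = 0.0193 by limma) was higher and mRpS9 (-0.40, adjusted p = 0.0426 by limma) lower. The large-subunit genes mRpL33 and mRpL35 passed here as well.

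mRpL33 (gene ID 50381) read 10.04 and 10.28 in control, 10.31 and 10.04 in OE-labelled and 9.52 and 9.56 in RNAi-labelled flies. The RNAi-labelled arrays lay below the other 4, by 0.64 ± 0.13 against OE-labelled flies (SE, adjusted p = 0.0260 by limma) and by a log2 difference of -0.62 against control, which did not pass (adjusted p = 0.0520). mRpL35 (gene ID 42588) read 8.12 and 8.12, 8.25 and 8.12, and 7.70 and 7.78 in the same order. Its differences were 0.44 ± 0.10 (SE, adjusted p = 0.0293 by limma) against OE-labelled flies and -0.38 against control (adjusted p = 0.0712). Without 1 of the RNAi-labelled arrays all 6 calls were lost, RpLP0-like at adjusted p-values of 0.0591 and 0.0638 and the others at 0.0516 to 0.177. Without the OE-labelled ZT3 array mRpL33 (0.0830), mRpL35 (0.153), mRpS9 (0.208) and mRpL2 (0.0535) did not pass, and without the ZT15 array mRpL2 did not (0.0593). Without either control array, which enter only through the shared spread, mRpL2 (0.0542 and 0.0549), mRpL35 (0.0746 and 0.0753) and mRpS9 (0.0634 without each) did not pass. With only the arrays compared mRpL2 (0.0555), mRpL35 (0.0759) and mRpS9 (0.0624) did not pass either, and mRpS9 was also lost without the intensity trend (0.0585) and after cyclic loess (0.0545).

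As groups the members differed little between the altered genotypes. The cytosolic median was 0.04, with 27 of 35 higher in the OE-labelled genotype, and the mitochondrial median 0.05, with 44 of 69 higher. Besides RpLP0-like, the cytosolic members with the largest differences, none passing, were RpL7-like (0.29), RpL34a (0.25) and RpL23 (0.20). At both times 23 cytosolic members were higher and 4 lower, beside 39.1% and 40.5% of all genes. For mitochondrial members these counts were 38 and 21. Centred on the median of all other genes of each array, the cytosolic median turned to -0.01 and the mitochondrial one to 0.002. Both leans thus depend on the scaling.

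**Figure D5:**
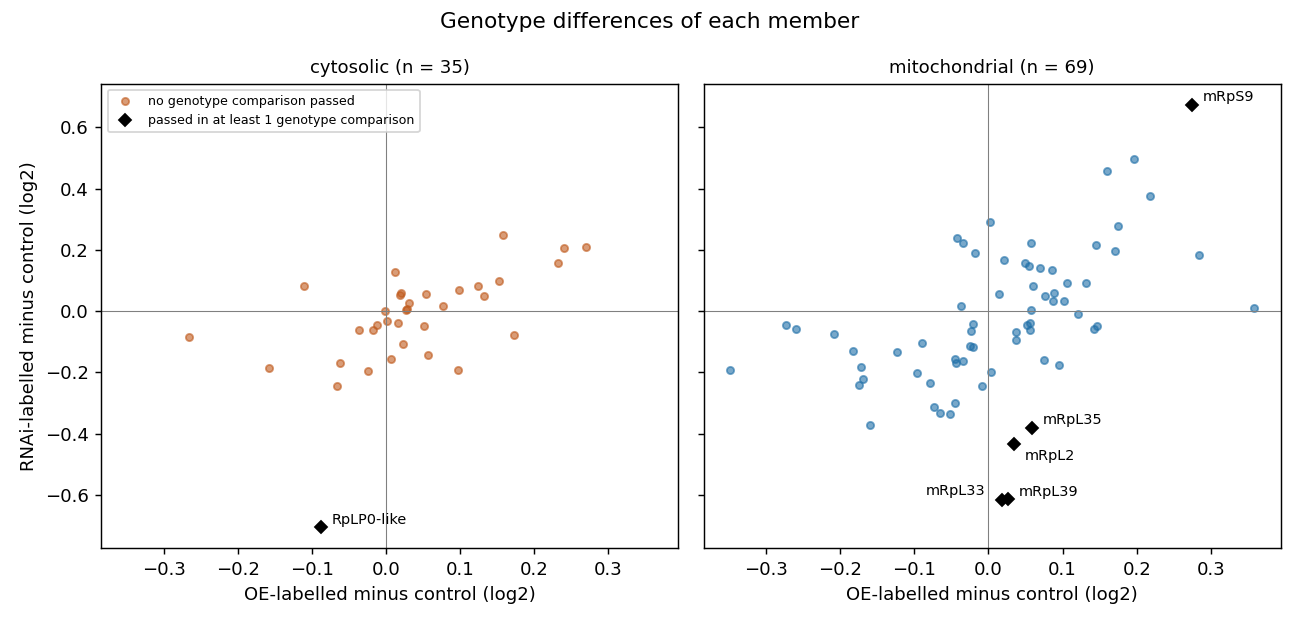
Each point is 1 member, with its log2 difference from control in the OE-labelled genotype on the horizontal axis and in the RNAi-labelled genotype on the vertical axis, means over both times; the axes share the control arrays, so points may line up for that reason. Black diamonds are the 6 members that passed in at least 1 genotype comparison, and the other cytosolic members lie between -0.25 (RpS29) and 0.25 (RpL37-2) on the vertical axis.

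Other signals differed between the genotypes as well. The hybridisation control BioB (3′ probe set) read 7.93 and 7.76 on the RNAi-labelled arrays, against 4.68 to 5.54 on the other 4. The median of all 13 hybridisation controls did not stand apart on these arrays (11.64 and 11.71, against 11.30 to 12.11 on the other 4). The 11 hemocyte markers had median deviations of -0.41 and -0.54 on the RNAi-labelled arrays, against -0.02 to 0.55 on the others. Against control 9 of them were lower at both times in the RNAi-labelled genotype and 2 were higher. Of the 4 photoreceptor markers 3 were higher and 1 lower than control at both times in that genotype (median 0.35). In the OE-labelled genotype all 10 neuron markers were lower than control at both times (median -0.49). The part of these signals in the members' differences was not tested.

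Genes around translation were read between genotypes beside the ribosomal proteins. Of 29 initiation genes 2 rose and 1 fell in the OE-labelled genotype against control, where 4.83% of all genes rose and 2.23% fell. eIF3g1, a subunit of the eIF3 complex that recruits the small subunit, read 10.90 and 10.78 in control, 11.44 and 11.34 in OE-labelled and 10.71 and 10.67 in RNAi-labelled flies, a rise of 0.55 (adjusted p = 0.0243 by limma). eIF3a rose by 0.40 (0.0481), and eIF4B, a cofactor of the helicase eIF4A, fell by 0.55 (0.0308). None of the 29 passed in the RNAi-labelled genotype against control. Between the altered genotypes 9 were higher and 1 lower in OE-labelled flies, where 15.7% and 11.9% of all genes were. The largest differences were those of eIF3g1 (0.70), eIF3f1 (0.67) and eIF3j (0.57). Of 8 elongation and termination genes 2 fell in the RNAi-labelled genotype, where 6.25% of all genes did. They were the exchange factor subunit eEF1delta (by 0.68, adjusted p = 0.0406 by limma) and the release factor eRF3 (by 0.58, 0.0462). These were 0.51 and 0.62 higher in OE-labelled than in RNAi-labelled flies, and eEF1alpha2 was lower (-0.27).

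Of the 37 ribosome biogenesis genes 1 rose in the OE-labelled genotype, where 4.83% of all genes did: Fib (fibrillarin, which methylates ribosomal RNA). It read 7.65 and 7.54 in control, 8.59 and 8.16 in OE-labelled and 7.80 and 7.53 in RNAi-labelled flies, a rise of 0.78 (adjusted p = 0.0259 by limma). In the RNAi-labelled genotype 2 fell, RpLP0-like and the small nucleolar particle protein NHP2 (by 0.61, adjusted p = 0.0390 by limma). Of all genes 6.25% passed as lower there. Between the altered genotypes 8 were higher and 1 lower in OE-labelled flies, where 15.7% and 11.9% of all genes were. The largest differences were those of mbm (0.88), Nop60B (0.75) and NHP2 (0.72). None of 10 RNA polymerase I genes passed in any genotype comparison. A list of growth signalling genes (TOR, insulin, Myc and other kinases) had 17 on the table. Of these foxo, which acts against growth, fell in both altered genotypes, by 0.85 and 0.94 (adjusted p = 0.0408 and 0.0313 by limma). The insulin receptor InR fell by 0.52 (0.0453) in the OE-labelled genotype. S6kII (-0.75), REPTOR (-0.48) and Tsc1 (-0.40) were lower in OE-labelled than in RNAi-labelled flies.

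On the mitochondrial side the initiation factor mIF2 rose by 0.55 (adjusted p = 0.0444 by limma) and mIF3, read close to the floor of the table (4.10 and 4.34 in control), fell by 0.72 (0.0483) in the RNAi-labelled genotype. ArgRS-m fell by 0.69 there (0.0366). Between the altered genotypes mIF3 (0.59), ArgRS-m (0.50) and GlyRS (0.39) were higher and the elongation factor mEFTs (-0.51) and the release factor mRF1 (-0.43) lower in OE-labelled flies. No gene of these 2 lists passed between the OE-labelled and control genotypes.

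The 6 cytosolic paralogs and like genes were read apart, since they are not typical members. RpL24-like and RpL7-like belong to families of large-subunit assembly factors and read 11.15 to 11.36 and 9.79 to 10.17 over the 6 arrays. RpL34a read 11.19 to 11.44. RpL37-2 (4.30 to 4.65) and RpS28a (4.08 to 4.65) lay close to the floor of the table, where differences carry little information, while their paralogs RpL37-1 (13.09 to 13.16) and RpS28b (13.56 to 13.62) were bright and steady. Apart from RpLP0-like none passed in any comparison. A second probe set was present for 6 members. For RpS30 and RpS7 the second one was dim (means of 5.19 and 4.00) and opposed the first, with -0.50 against 0.02 and -0.22 against 0.27 in the OE-labelled genotype. Close paralogs may share probes, and their signals are uncertain to that extent.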

How the data were processed

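Total RNA of 30 heads per sample was hybridised to Affymetrix Drosophila arrays, 6 in all. The authors deposited log2 probe set signals, for which the submitters' processing notes name Affymetrix Expression Console; its version and method are not given in the sources used here, and the log2 scale was read from the values. The number of arrays limits the precision. Of 10956 probe sets 9286 had 1 gene in the platform annotation, 276 several and 1394 none listed, and 9260 were matched by ID to RefSeq. Every probe set reached 4.00 on some array, so no further filter was used. Where a gene had several probe sets the brightest on average was taken. A filter at the 40th percentile (6.79) would keep 33 of 35 cytosolic and 69 of 69 mitochondrial members.

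Differences were fitted with limma 3.58.1 in R 4.3.3 (lmFit, genotype and time as additive terms, all 6 arrays, eBayes with an intensity trend, two-sided, Benjamini-Hochberg over 8517 genes, threshold 0.05), tested on simulated data. The ± values are moderated SEs; genotype differences are means over 2 times and time differences over 3 genotypes. The members, gene lists and tests were chosen with earlier results of these data known. Named were, per comparison and group, up to 8 members per direction that passed with 1 sign in every pair. Where fewer than 3 passed, the 3 largest others of 1 sign were named. Up to 3 passing genes per list, the paralog list, members with opposed probe sets and cbt were named too. For the cell type marker lists this was done for time only, and their genes that passed between genotypes are not named. Named after their values were seen were RpL27, RpL29, RpS20, RpS27A, RpL40, RpL28, RpLP1, RpLP2, mRpL12 in time, mRpL10, mRpS18A and mRpS35. So were ValRS-m, mEFG1, mEFTu2, bonsai, tko and Rack1, and the members not overlapping in time. Alternatives were the filter, averaging the probe sets of a gene, no trend, no term for the other factor, only the arrays compared, quantile, cyclic loess, centring on other genes, and each array left out. Sequence features were not used. Plots used Python 3.11.15 with matplotlib 3.10.9.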

Additional observations from a re-analysis of the deposited data

Results flagged for a closer look

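The cytosolic median difference between RNAi-labelled and control flies was -0.0233 at ZT3 and 0.0035 at ZT15, of opposite sign. The difference between the times was not tested.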

How the results depend on the processing

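The time contrast kept its direction under all alternatives run: 63 to 67 of 69 mitochondrial members read higher at ZT15, with medians of 0.1629 after quantile normalization, 0.1575 after cyclic loess, 0.169 after centring and 0.1331 to 0.1410 with an array left out. The cytosolic time median was 0.0055 after centring and -0.0248 to -0.0123 with an array left out, and no member passed for time under any of them. For OE-labelled minus control, no member passed under any alternative; the cytosolic median was 0.0809 by loess and -0.0199 by centring, and the mitochondrial one 0.042, -0.0168 and, with an array left out, -0.004 to 0.0282. For RNAi-labelled minus control, 2 cytosolic members passed with the filter, RpS29 (adjusted p = 0.0320 by limma) being the added one, and 0 to 1 with an array left out; mitochondrial calls were 9 with the filter, 8 with only the arrays compared, 1 without the time term and 0 to 8 with an array left out. Its cytosolic median was -0.033 with the mean of probe sets, 0.0293 by quantile, 0.0447 by loess and -0.0188 to 0.0032 with an array left out, and its mitochondrial median -0.0337 by quantile, -0.0586 by loess, -0.0427 by centring and -0.0632 to -0.0387. Between the altered genotypes, 2 cytosolic members passed with the filter and 0 to 1 with an array left out, and 2 mitochondrial members passed with only the arrays compared and 0 to 4 with an array left out. There the cytosolic median was -0.012 by quantile, -0.0072 by centring and 0.0261 to 0.0714 with an array left out, and the mitochondrial one 0.0227, 0.0024, 0.0733 by loess and 0.0316 to 0.0566. Over all genes the counts of calls (601, 801, 2351 and 59) ranged from 228 to 642, 379 to 1604, 1307 to 2456 and 3 to 83, and with an array left out from 0 to 1301, 0 to 1598, 585 to 2537 and 0 to 146. With an array left out, 1 residual degree of freedom remained and the lone array was assumed to vary like the others. Time was a term of the fit, so genotype differences were taken within each time, and the fit without it is among these alternatives; the labels give no replicate numbers to pair by. The causes were not tested.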
